A study of Mus musculus with 92 samples.

Results

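The comparison described here set the 12 h transcriptional response to loss of GABPA against the response to joint loss of its partners GABPB1 and GABPB2. It rested on 8 of the 26 RNA-seq and SLAM-seq libraries of the series and on all 16396 genes with enough reads to be tested, of 56953 gene IDs in the deposited tables. The question was which functions needed GABPA but kept going without both partners.

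GABP is an ETS-family transcription factor built from unlike subunits. GABPA binds DNA at GGAA-containing ETS motifs that are common in the promoters of housekeeping genes, and it carries no strong activation domain of its own. The partner subunits GABPB1 and GABPB2 bind GABPA through ankyrin repeats, supply the activation domain and allow larger GABP complexes to form. GABP is best known as a regulator of nuclear genes for mitochondrial, ribosomal and cell cycle functions.

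The cells were mouse embryonic stem cells of the B6 background, kept in serum with LIF, the MEK inhibitor PD0325901 and the GSK3 inhibitor CHIR99021. A dTAG degron was on both alleles of Gabpa in the first line (genotype GabpadTAG/dTAG) and on Gabpb1 and Gabpb2 in the second (genotype Gabpb1/b2dTAG/dTAG). The compound dTAG-13 binds this tag and leads to degradation of the protein that carries it. Cells were treated for 12 h with dTAG-13 at 500 nM or with its solvent DMSO, and each group has 2 libraries of polyadenylated RNA per group. The labels call them biological duplicates and do not say whether cultures were separate, so p-values measure the spread between these libraries. A line with the degron on GABPB1 alone (4 libraries) and SLAM-seq of new RNA in the GABPA line (14 libraries) were also examined. Their changes do not enter the difference of responses. The GABPB1 libraries were, however, fitted together with those of the other lines and share a common estimate of the spread. The sources used here do not give the number of clones behind each line, protein levels were not measured in these files, and how fully each protein was removed is therefore unknown. Because the degron acts on protein, subunit mRNA does not check the labels.

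The 8 libraries held 16.0 to 26.4 M counts, and the SLAM-seq libraries 0.937 to 4.25 M reads with T-to-C conversions. The first principal component (60.4% of the variance) separated the lines and the second (33.6%) separated dTAG-13 from DMSO. Line, clone and culture cannot be told apart. Replicates of the GABPB1/GABPB2 DMSO group differed most: their chi-square, divided by its degrees of freedom, was 15.7, against 3.06 to 6.23 in the other RNA-seq groups. Stem cell markers were high in all 8 libraries, where 28 pluripotency genes summed to 11248 to 12195 CPM (counts scaled to library size, edgeR) and 23 markers of other lineages to 144 to 194 CPM. Feeder fibroblast markers (14 genes) summed to 986 to 1371 CPM in the GABPA line and 2320 to 2579 CPM in the GABPB1/GABPB2 line, with Col3a1 and Lum at 0 in every library. In the GABPA line that sum was 986 to 1119 CPM in DMSO and 1355 to 1371 CPM after dTAG-13, mainly through fibronectin (Fn1, 882 and 1030 CPM and 1300 and 1330 CPM), and its part in the results was not tested. In such bulk libraries, fewer cells of a type and less RNA per cell cannot be told apart.

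The promoter sequences below belong to genes on which the results turn, and were chosen because each holds the 7 letters CCGGAAG, an ETS core in the form that GABP binds, or their reverse complement CTTCCGG. They are RefSeq promoters of build GRCm38.p6, written 5′ to 3′ along the gene's strand, with the ETS letters in capitals and everything else in lower case. The first 5 genes fell by more than 1 (log2) without GABPA and stayed within 0.5 of DMSO without the partners, Tmem184c fell in both lines with no called difference, and Mdm2 rose without GABPA.
Elof1 (chr9:22117150-22117179, minus strand): ttccgttaggggCCGGAAGttagcgtctcc
Exoc1 (chr5:76529257-76529336, plus strand): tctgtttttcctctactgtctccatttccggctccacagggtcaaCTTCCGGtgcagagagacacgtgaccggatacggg
Kif22 (chr7:127042481-127042560, minus strand): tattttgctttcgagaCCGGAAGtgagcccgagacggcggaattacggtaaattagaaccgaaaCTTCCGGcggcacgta
Trmt10c (chr16:56037759-56037838, minus strand): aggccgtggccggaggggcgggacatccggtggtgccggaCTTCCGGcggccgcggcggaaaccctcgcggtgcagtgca
Rpl37 (chr15:5116550-5116629, plus strand): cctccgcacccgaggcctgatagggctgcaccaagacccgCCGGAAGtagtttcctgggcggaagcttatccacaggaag
Tmem184c (chr8:77610624-77610703, minus strand): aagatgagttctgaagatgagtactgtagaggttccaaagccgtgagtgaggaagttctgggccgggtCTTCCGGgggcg
Mdm2 (chr10:117710729-117710808, minus strand): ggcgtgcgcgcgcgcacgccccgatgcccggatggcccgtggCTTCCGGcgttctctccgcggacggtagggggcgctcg
The letters lie 28 bases after the annotated start in Elof1, 5 before it in Exoc1, 12 before it in Trmt10c, 18 after it in Tmem184c and 8 before it in Mdm2. Kif22 has 2 copies, 124 and 76 bases before the start. Rpl37 has a copy 23 bases before the start and a second, not shown, 34 bases after it. Because the genes shown were chosen for these letters, the windows say nothing of how often each class holds them. Among the named genes with a listed promoter, 6 of 11 held falls, 3 of 4 falls with no called difference and 6 of 7 held rises have none.

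Responses below are log2 fold changes of dTAG-13 over DMSO at 12 h with the standard error implied by edgeR's quasi-likelihood test. The difference is the change in the GABPA line minus the change in the GABPB1/GABPB2 line, and a gene is called at a Benjamini-Hochberg adjusted p under 0.05 over all genes. The difference was called lower in the GABPA line for 1754 genes (10.7% of those tested) and higher for 1648 (10.1%). Counts of called members in the gene lists below are to be read against these shares. In the GABPA line 3589 genes fell (21.9%) and 4027 rose (24.6%), and in the GABPB1/GABPB2 line 1519 fell (9.26%) and 578 rose (3.53%). Over all genes the median change was 0.06 in the GABPA line, 0.01 in the GABPB1/GABPB2 line and 0.03 for the difference. The count of higher differences was 1089 without GABPB1/GABPB2 dTAG-13 replicate 1 and 1057 without replicate 2. The counts in the GABPB1/GABPB2 line were 970 fallen and 192 risen genes without dTAG-13 replicate 1, and 214 risen without replicate 2.

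**Figure D1:**
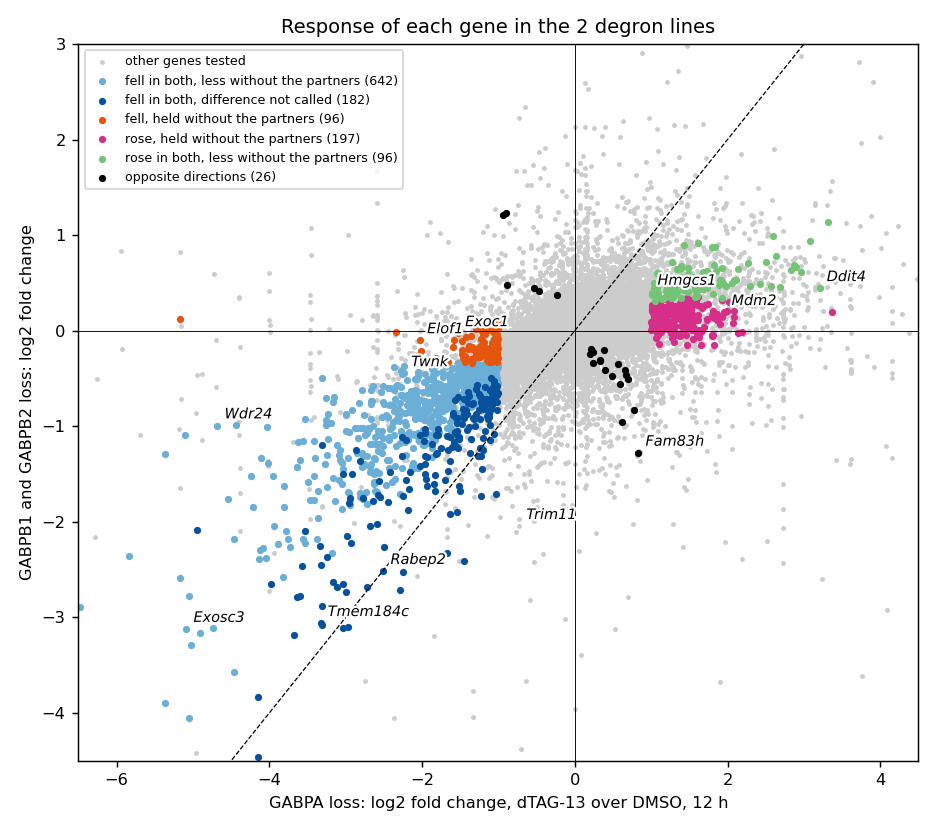
Each point is a gene, with its log2 fold change after GABPA loss on the x axis and after GABPB1 and GABPB2 loss on the y axis; colours mark the classes defined in the text and the dashed line marks equal changes. Most coloured falls lie between the dashed line and the horizontal zero line, and 92 genes lie outside the axes.

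Most genes that fell strongly without GABPA also fell without the partners, and many of them fell less far there. Of 1280 genes that fell by more than 1 (log2, a 2-fold change) in the GABPA line, 850 (66.4%) also fell in the GABPB1/GABPB2 line, and the difference was called for 862 (67.3%). A class that fell in both lines but less without the partners comprised 642 of the 1280 genes (50.2%). For another 182 (14.2%) the gene fell in both lines and the difference was not called. A class that held without the partners, with a called difference and a 95% interval of the GABPB1/GABPB2 change wholly within -0.5 to 0.5, had 96 members (7.5%). The remaining 360 met none of these definitions. The classes were defined on the same 8 libraries, so these counts and the class medians of both responses are a description with no test.

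The change in the GABPB1/GABPB2 line, as a share of the change in the GABPA line, had a median of 39.3% over the 1280 falls, with quartiles of 26.5% and 53.7%. It was above 100% for 37 genes and below 0 for 49. By depth of fall, the median share was 36.5% for the 580 genes that fell by 1 to 1.5 and 45.3% for the 131 that fell by 3 or more. The held class had 87 of its 96 members among those 580 genes and 1 among the 131, and the fixed interval of 0.5 that defines it is easier to meet for a shallow fall that is shared in part. Rises were shared less: of 1125 genes that rose by more than 1 in the GABPA line, 158 (14%) rose in the GABPB1/GABPB2 line and the median share was 18.3% (quartiles 5.54% and 31.0%), with 202 rises below 0. A higher cut on level did not change this order: among genes from an average log2 CPM of 3 up, the share was 39.7% over 754 falls and 17.7% over 310 rises. The calls in the GABPB1/GABPB2 line did depend on level, and at that level 86.5% of the falls and 36.1% of the rises were called there. Changes in the line without GABPB1 alone did not enter the difference. The median share there was 22.1% for the same falls and 15.1% for the same rises.

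The members of the held class described first are the 12 with the largest falls among genes with a symbol, an average log2 CPM from 3 up and groups that did not overlap. Members that missed these criteria, such as Ubash3a (-2.34 and -0.01, at 3.74 and 3.9 CPM in DMSO), are counted but not described. Ints12 fell less than the 12 and is described with them as a called member of the Integrator list. Elof1 encodes an elongation factor that travels with RNA polymerase II (ENSMUSG00000013822.8, mm39 chromosome 9, 22024285 to 22028468, minus strand). It was at 47 and 48.6 CPM in DMSO and 11.6 and 11.9 CPM after dTAG-13 in the GABPA line, and at 31.7 and 27.3 CPM in DMSO and 27.4 and 27.8 CPM after dTAG-13 in the GABPB1/GABPB2 line. The dTAG-13 libraries of the GABPA line were the lowest of the 8 by more than 2-fold, and in the other line the DMSO and dTAG-13 libraries overlapped. The change was -2.03 ± 0.094 in the GABPA line and -0.10 ± 0.084 in the other (95% interval -0.28 to 0.08), a difference of -1.93 ± 0.13 (adjusted p = 2.6e-08). Supt7l, a subunit of the SAGA coactivator complex, was at 25.6 and 23.9 CPM in DMSO and 6.75 and 7.31 CPM after dTAG-13 and in the GABPB1/GABPB2 line at 22.6 and 23.3 CPM in DMSO and 18 and 19.8 CPM after dTAG-13. Its changes were -1.81 in the first line and -0.28 in the second (interval -0.48 to -0.08; difference -1.53 ± 0.15, adjusted p = 1.21e-06). Ints12, a subunit of the Integrator complex that cleaves nascent RNA, was at 27.2 and 26.5 CPM in DMSO and 9.72 and 10.3 CPM after dTAG-13 without GABPA, and at 22.9 and 24.5 CPM in DMSO and 22 and 23.3 CPM after dTAG-13 in the GABPB1/GABPB2 line. All 4 libraries of the GABPB1/GABPB2 line lay within 22 to 24.5 CPM, and the difference was -1.36 ± 0.13 (adjusted p = 1.23e-06).

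Exoc1, a subunit of the exocyst that tethers secretory vesicles (ENSMUSG00000036435.14, mm39 chromosome 5, 76677158 to 76718141, plus strand), was at 33.5 and 31.6 CPM in DMSO and 10.9 and 11.6 CPM after dTAG-13 in the GABPA line. In the GABPB1/GABPB2 line it was at 43.7 and 49.7 CPM in DMSO and 44.8 and 46.6 CPM after dTAG-13, so that only the GABPA line separated its groups (changes -1.53 and -0.03, difference -1.50 ± 0.13, adjusted p = 4.25e-07). Sh3bp5l, which encodes an activator of Rab11, went from 49.6 and 48.2 to 14.2 and 10.1 CPM in the GABPA line and from 48.5 and 39.4 to 39.8 and 36.5 CPM in the other, where the groups overlapped. Its difference was -1.80 ± 0.17. Pigm, a mannosyltransferase for the GPI anchor, was at 41.2 and 38.8 CPM in DMSO and 13.3 and 13.1 CPM after dTAG-13, and in the GABPB1/GABPB2 line at 41.6 and 45.2 CPM in DMSO and 38.6 and 38.3 CPM after dTAG-13 (changes -1.60 and -0.17). Slc35b2, the Golgi transporter of the sulfate donor PAPS, had changes of -1.48 and -0.20, with a difference of -1.28 ± 0.13. Smim7, a small membrane protein, started from different levels: 87.8 and 87.5 CPM in DMSO in the GABPA line and 30.5 and 31.6 CPM in the GABPB1/GABPB2 line. After dTAG-13 it stood at 26.9 and 28.6 and 24.2 and 25.2 CPM, so the lines met at a like level from unlike starts.

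Kif22, a chromokinesin that moves chromosome arms in mitosis, was at 157 and 145 CPM in DMSO and 53.6 and 55 CPM after dTAG-13 in the GABPA line and at 99.8 and 97 CPM in DMSO and 81 and 85 CPM after dTAG-13 in the GABPB1/GABPB2 line. It fell in both lines, by 1.48 and by 0.25 (interval -0.38 to -0.11), and its difference was -1.23 ± 0.093 (adjusted p = 9.47e-08). Trmt10c, a subunit of mitochondrial RNase P that processes mitochondrial tRNAs (ENSMUSG00000044763.9, mm39 chromosome 16, 55852972 to 55858182, minus strand), was at 35.4 and 35.7 CPM in DMSO and 12.1 and 13.6 CPM after dTAG-13 and in the other line at 30.7 and 31.9 CPM in DMSO and 25.6 and 25.7 CPM after dTAG-13. It also fell in both lines, -1.47 against -0.29, so that membership of the held class does not mean no change. Trmt10c lies apart from other coding genes, whereas Supt7l overlaps Slc4a1ap, Ints12 overlaps Gstcd and Dhx57 overlaps Morn2 on the other strand, whose reads could be counted with theirs. Dhx57, a putative RNA helicase, was similar, with changes of -1.44 and -0.33 that were both called. Rpl37, a protein of the large ribosomal subunit, had changes of -1.44 and -0.26. Its reads may be shared with the near-identical copy Rpl37rt (-1.39 and -0.16), so both values are uncertain. The noncoding RNA Rian met the definition on very few reads: 7 in DMSO and 0 after dTAG-13 in the GABPA line, which is at least 2.08-fold lower if the empty group is set to 3 reads. In DMSO it stood at 264 and 285 CPM in the other line. The Rian difference was not called without GABPA DMSO replicate 2 or without either dTAG-13 replicate of that line.

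**Figure D2:**
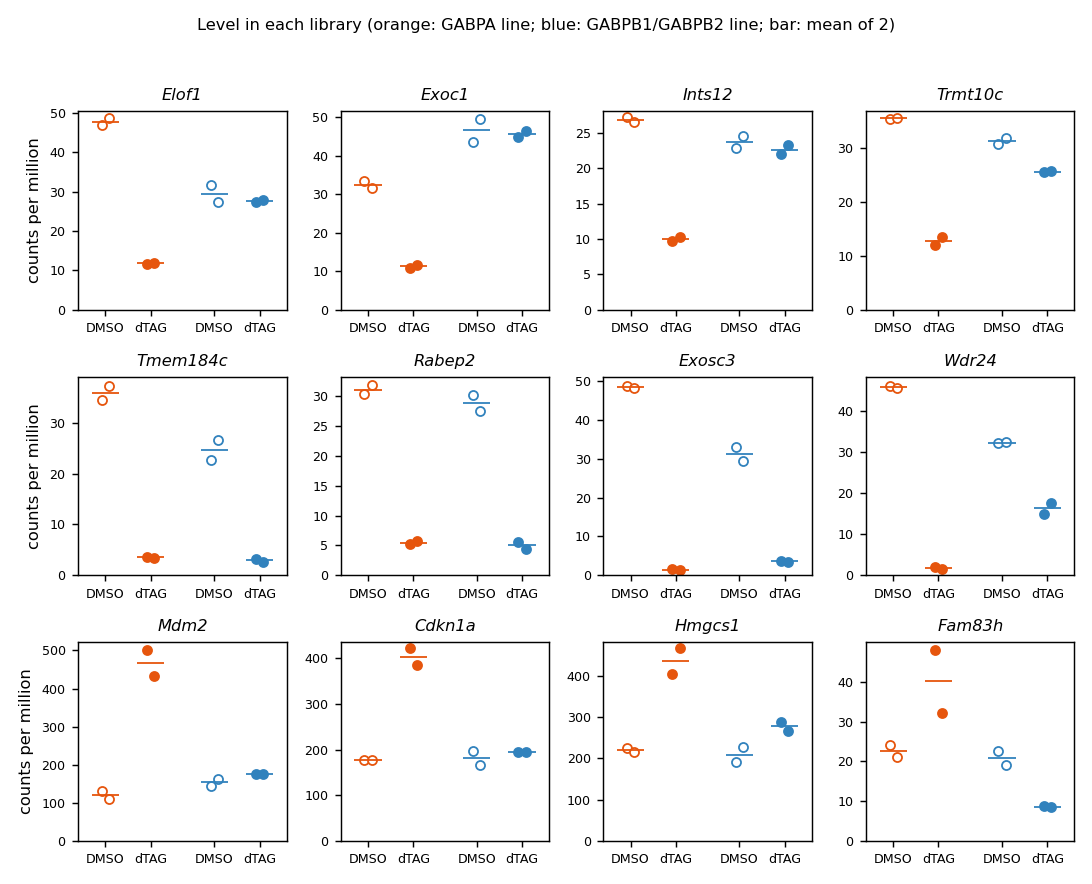
CPM in each library for 12 genes, with open points for DMSO, filled points for dTAG-13 and a bar for the mean of 2 libraries; each y axis starts at 0. Elof1, Exoc1, Ints12 and Trmt10c drop by more than 1 on the log2 scale in the GABPA line and by less than 0.5 in the GABPB1/GABPB2 line, while Tmem184c and Rabep2 drop by more than 2 in both.

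Of the 96 genes, 18 (18.8%) were in any of the 44 gene lists used here, against 1340 (8.17%) of all genes tested and 112 of the 642 genes (17.4%) that fell in both lines but less without the partners. Ribosome assembly gave Ltv1 (-1.29 and -0.22 in the GABPA and the GABPB1/GABPB2 line), Bms1 (-1.05 and -0.24), Wdr74 (-1.13 and -0.31) and Tsr3 (-1.02 and -0.25). The ribosomal protein genes were Rpl37 and Rps14 (-1.05 and -0.17), and translation further gave the initiation factor gene Eif3m and the tryptophanyl-tRNA synthetase gene Wars. Mitochondrial members were Trmt10c and the mitoribosome release factor gene Mrpl58 (-1.19 and -0.16). Transcription, splicing and repair gave Ints12, the super elongation complex gene Mllt1, the spliceosome helicase gene Snrnp200 and the repair nuclease gene Ercc1. The rest were the proteasome ATPase gene Psmc2, Exoc1, the lactate transporter gene Slc16a3 and Eomes, a mesendoderm transcription factor.

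Mllt1 was among the genes in which the GABPB1/GABPB2 line moved least: it was at 55.5 and 60.9 CPM in DMSO and 29.6 and 26.4 CPM after dTAG-13 in the GABPA line, and at 37.5 and 35.5 CPM in DMSO and 36.6 and 40 CPM after dTAG-13 in the other. The difference was -1.12 ± 0.12 (adjusted p = 3.36e-06). Snrnp200 was at 319 and 355 CPM in DMSO and 144 and 132 CPM after dTAG-13, and at 492 and 528 CPM in DMSO and 437 and 410 CPM after dTAG-13 in the GABPB1/GABPB2 line, where it also fell (-0.27, adjusted p = 0.00987). Psmc2 was at 191 and 180 CPM in DMSO and 68.7 and 78 CPM after dTAG-13 and in the other line at 145 and 142 CPM in DMSO and 111 and 115 CPM after dTAG-13, a fall of 0.34 in the second line with an adjusted p of 0.002. The held class thus ranged from genes with no overlap between groups in both lines to genes whose GABPB1/GABPB2 groups overlapped.

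Changes that the class definition did not use were then examined, although the GABPB1 libraries share in its estimate of the spread. In the GABPB1 line, where 5.46% of all genes fell, 8 of the 96 held genes fell and their median change was -0.13. The 642 genes that fell in both lines but less without the partners had a median of -0.40 there and 421 of them fell, and the 182 with no called difference had a median of -0.60 and 91 fell. The order of the 3 class medians in the GABPB1/GABPB2 line therefore recurred in a separate line, although that line shares the loss of GABPB1. The shares of genes that fell there did not keep this order, at 8.33%, 65.6% and 50%. The last class was lower in level, with a median average log2 CPM of 2.17 against 4.76 and 4.80 in the first 2.

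Of 92 held genes measured by SLAM-seq, 10 fell at 1 h (1.72% of all genes tested fell), 26 at 4 h (3.91%) and 68 at 12 h (18.3%), and their median changes at 1, 2, 4 and 12 h were -0.49, -0.60, -0.73 and -1.29. The 605 measured genes that fell in both lines but less without the partners had medians of -0.68, -0.97, -1.15 and -1.78, with 142, 312 and 508 called at 1, 4 and 12 h. The new RNA values come from the GABPA line alone and say nothing of new RNA without the partners. Elof1 was at -0.99 at 1 h, -1.09 at 4 h and -2.39 at 12 h. Exoc1 departed from this course, with -0.49, 0.08 and -0.30 at those times.

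**Figure D3:**
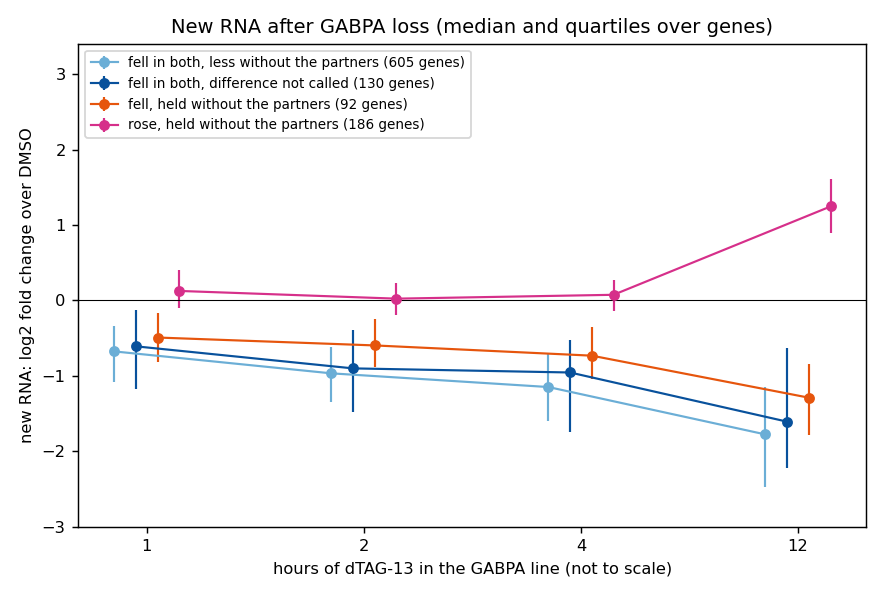
Median (points) and quartiles (bars) of the log2 change of new RNA over DMSO in the GABPA line at 1, 2, 4 and 12 h of dTAG-13, for 4 classes of genes; the hours are not to scale. The held falls move from -0.49 to -1.29 and lie above the genes that fell in both lines but less without the partners, whereas the held rises stay near 0 until 4 h and reach 1.25 at 12 h.

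Falls in both lines with no called difference were fewer than those that were called smaller without the partners, and a missing call does not show that the falls were equal. Of the 182 genes for which the difference was not called, the deepest falls that passed the level and overlap criteria were those of Tmem184c, Ccdc137, Exoc3l, Psmb10, Rabep2 and Tro. Tmem184c, a transmembrane protein (ENSMUSG00000031617.17, mm39 chromosome 8, 78322611 to 78337327, minus strand), was at 34.4 and 37.3 CPM in DMSO and 3.65 and 3.48 CPM after dTAG-13 in the GABPA line and at 22.7 and 26.5 CPM in DMSO and 3.24 and 2.57 CPM after dTAG-13 in the GABPB1/GABPB2 line. The groups were separate in both lines, and the difference was -0.27 ± 0.21 with a 95% interval of -0.71 to 0.17. Rabep2, a Rab5 effector of endosome fusion, was at 30.3 and 31.9 CPM in DMSO and 5.2 and 5.72 CPM after dTAG-13, and at 30.2 and 27.5 CPM in DMSO and 5.6 and 4.43 CPM after dTAG-13 in the other line (changes -2.51 and -2.52). Its difference of 0.01 ± 0.18 had an interval of -0.37 to 0.39, which is the range of differences these libraries allow. Psmb10, a catalytic subunit of the immunoproteasome, changed by -2.59 and -2.02 (interval of the difference -1.08 to -0.05, not called after adjustment). Exoc3l, a relative of the exocyst gene Exoc3, changed by -2.97 and -3.10 from unlike starts of 48 and 48.5 CPM and 7.33 and 8.6 CPM. Ccdc137 (-2.99 and -2.73) and Tro (-2.49 and -2.26) were similar. Without GABPA dTAG-13 replicate 1, the Ccdc137 difference was called at -0.84. The 6 genes changed by -2.19 to -1.41 in the GABPB1 line.

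Between these ends lay ribosome assembly, in which many genes fell in both lines and further without GABPA. Among 63 assembly factors of the large ribosomal subunit, which build pre-60S particles in the nucleolus, 44 fell in the GABPA line and 25 in the GABPB1/GABPB2 line. The difference was called lower in the GABPA line for 32 and higher for 1, and the medians were -0.41, -0.13 and -0.30 for the 2 responses and the difference. Nip7 was at 271 and 262 CPM in DMSO and 27.7 and 28.1 CPM after dTAG-13 in the GABPA line and at 103 and 100 CPM in DMSO and 63.4 and 61.2 CPM after dTAG-13 in the GABPB1/GABPB2 line. Rpf1 was at 74.9 and 62.3 CPM in DMSO and 3.72 and 4.72 CPM after dTAG-13, against 45.8 and 43 CPM in DMSO and 17.7 and 16.4 CPM after dTAG-13 in the other line, so it changed by -4.02 and -1.38. No group overlapped with its control in either gene. Among 59 assembly factors of the small subunit, 29 were lower and 2 higher in the GABPA line, led by Wdr3 (-3.95 and -1.52), Rrp12 (-2.10 and -0.83) and Utp6 (-1.55 and -0.47). Of 19 core genes of small nucleolar RNPs, 9 were lower, and 5 without GABPA DMSO replicate 1. Shq1, an assembly chaperone of H/ACA particles, went from 68.5 and 67.3 to 3.72 and 2.59 CPM without GABPA and from 30.5 and 31.8 to 17 and 14.2 CPM without the partners. Of the 18 large-subunit assembly genes that fell by more than 1 in the GABPA line, 17 fell in both lines but less without the partners and 1 was held. When any library was left out, the small counts of higher genes stayed at 0 to 3 for the lists of large-subunit assembly, small-subunit assembly, mitochondrial ribosome, mitochondrial import and core spliceosome.

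The proteins of the finished cytosolic ribosome behaved otherwise. Of 80 genes, 42 rose and 13 fell in the GABPA line, and 3 rose and 1 fell in the GABPB1/GABPB2 line. The median difference was 0.15, and 0.00702 without GABPB1/GABPB2 DMSO replicate 1. With all libraries, 12 genes were higher and 10 lower. These were 15% and 12.5% of the list, against 10.1% and 10.7% of all genes. The count of higher genes depended on single libraries, at 1 and 2 without dTAG-13 replicates 1 and 2 of the GABPB1/GABPB2 line, 3 and 31 without its DMSO replicates 1 and 2, and 5 without GABPA DMSO replicate 1. Rps27 fell in both lines (-1.56 and -0.54), Rps14 in the GABPA line (-1.05), and Rpsa rose in both (0.69 and 0.29, difference 0.41 ± 0.064). Ribosomal protein genes have many processed copies, and their values are uncertain for that reason.

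Mitochondrial gene expression followed the graded pattern. Of 26 genes for transcription and replication of mitochondrial DNA, the difference was lower in the GABPA line for 14, while 17 fell there and 6 fell in the GABPB1/GABPB2 line (medians -0.64 and -0.08, and -0.45 for the difference). Twnk, the mitochondrial replicative helicase, was at 72.9 and 68.9 CPM in DMSO and 14.9 and 15.2 CPM after dTAG-13 in the GABPA line and at 49.3 and 47.5 CPM in DMSO and 33.3 and 37.8 CPM after dTAG-13 in the GABPB1/GABPB2 line. It fell by 2.24 and 0.45, with a difference of -1.79 ± 0.12 (adjusted p = 2.6e-08). Twnk overlaps the mitoribosome gene Mrpl43 on the other strand (-2.64 and -0.58), and because the sources used here do not say how strands were handled, their reads cannot be told apart. Tfam, which packages and transcribes mitochondrial DNA, was at 88.9 and 90.7 CPM in DMSO and 44.3 and 47.8 CPM after dTAG-13, and at 75 and 76.3 CPM in DMSO and 63.9 and 65.9 CPM after dTAG-13 in the other line. Tfam fell by 0.96 and by 0.22, short of the 2-fold threshold of the classes. Slirp, a stabilizer of mitochondrial mRNA, changed by -1.45 and -0.38.

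Of 83 mitochondrial ribosome genes, 26 were lower and 1 higher in the GABPA line, and 39 fell there against 18 in the GABPB1/GABPB2 line. Mrpl53 was at 49.9 and 48.5 CPM in DMSO and 2.54 and 2.77 CPM after dTAG-13 in the GABPA line and at 16.8 and 16.3 CPM in DMSO and 4.03 and 5.33 CPM after dTAG-13 in the other, Mrps34 changed by -2.57 and -1.19, and Aurkaip1 by -1.64 and -0.52. Of 37 import genes, 14 were lower and 2 higher. Timm23, the channel of the inner membrane, was at 229 and 221 CPM in DMSO and 30.2 and 32.7 CPM after dTAG-13 without GABPA and at 137 and 131 CPM in DMSO and 60.9 and 62.8 CPM after dTAG-13 without the partners (difference -1.72 ± 0.092). Mtx2 (-3.07 and -1.25), Timm10b (-2.39 and -0.78) and Tomm22 (-1.63 and -0.46) moved alike. In the respiratory chain, genes went both ways. Of 37 complex I genes 9 fell and 15 rose in the GABPA line and 4 fell in the other, and of 41 genes of complexes II to V 12 fell and 10 rose against 4 and 1. The difference was lower for 5 and higher for 2 in complex I, and lower for 6 and higher for 1 in complexes II to V. The lower shares were 13.5% and 14.6%, against 10.7% of all genes. The higher shares were 5.41% and 2.44%, against 10.1% of all genes. Without GABPB1/GABPB2 DMSO replicate 1 the lower counts were 10 and 11, and without its DMSO replicate 2 the higher counts were 8 and 8. Under the other omissions the higher counts stayed at 0 to 2 and at 0 to 1. Complexes II to V had 3 lower genes without GABPA DMSO replicate 2 and 2 without GABPA dTAG-13 replicate 1. Ndufb9 fell by 1.15 and 0.45, while Sdhd fell without GABPA (-0.58) and was at 104 and 105 CPM in DMSO and 105 and 104 CPM after dTAG-13 in the other line.

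**Figure D4:**
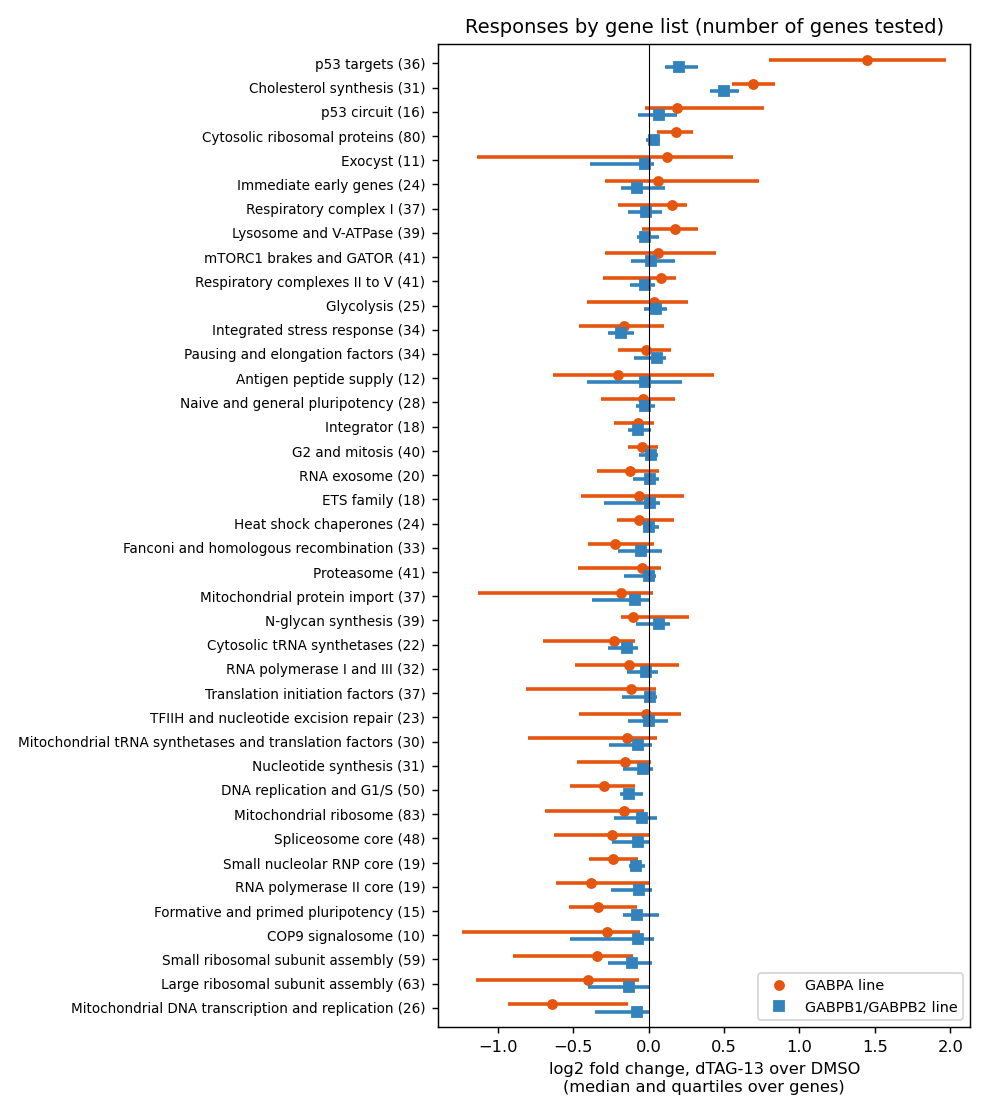
Median (points) and quartiles (bars) over genes of the log2 change in the GABPA line (orange circles) and the GABPB1/GABPB2 line (blue squares) for gene lists with at least 10 genes tested, ordered by the median difference. The list of lineage markers is not drawn. The p53 targets stand at medians of 1.45 and 0.20, mitochondrial DNA transcription and replication at -0.64 and -0.08, and cholesterol synthesis at 0.69 and 0.50.

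Transcription, RNA decay and splicing genes gave both deep graded falls and held members. Exosc3, a cap subunit of the RNA exosome, was at 48.7 and 48.2 CPM in DMSO and 1.49 and 1.36 CPM after dTAG-13 in the GABPA line and at 33 and 29.4 CPM in DMSO and 3.73 and 3.41 CPM after dTAG-13 in the GABPB1/GABPB2 line. Both groups of each line were well apart, and the changes were -5.09 ± 0.13 and -3.12 ± 0.11 with a difference of -1.96 ± 0.21. Exosc4 was at 50.4 and 55.3 CPM in DMSO and 7.49 and 7.13 CPM after dTAG-13, and at 34 and 25.4 CPM in DMSO and 14.4 and 15.1 CPM after dTAG-13 in the other line. Exosc3 overlaps Dcaf10, and Exosc4 overlaps Oplah, on the other strand. Of 20 exosome genes 6 were lower in the GABPA line, and 3 without GABPA dTAG-13 replicate 1, while the weaker differences of Exosc1 (-0.36), Exosc5 (-0.34) and Exosc8 (-0.37) were lost under 2 or more of the leave-outs. Of 18 Integrator genes 3 were lower, namely Ints12, Ints11 (-0.94 and -0.37) and Ints5 (-0.56 and -0.11), and 5 were lower without GABPB1/GABPB2 DMSO replicate 2. The 3 Integrator genes were 16.7% of their list, against 10.7% of all genes called lower. Of 48 core spliceosome genes 17 were lower and 2 higher, among them Crnkl1 (-2.27 and -0.42) and Sf3b6 (-1.91 and -0.51). Ercc3, the TFIIH translocase, was at 84.9 and 85.7 CPM in DMSO and 4.83 and 4.07 CPM after dTAG-13 without GABPA and at 65.3 and 65.6 CPM in DMSO and 35.1 and 37.2 CPM after dTAG-13 without the partners, whereas the repair gene Ercc1 was held (-1.24 and -0.22). Ctr9, a subunit of the PAF elongation complex, changed by -2.31 and -0.83.

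In DNA replication and G1/S control, 17 of 50 genes were lower in the GABPA line. In nucleotide synthesis 13 of 31 were lower and 3 higher, or 41.9% and 9.68%, against 10.7% and 10.1% of all genes. The clamp loader genes Rfc2 (-1.99 and -1.04) and Rfc3 (-2.31 and -0.88), the primase gene Prim2 (-1.84 and -0.45) and the thymidylate synthase gene Tyms (-1.98 and -0.89) fell in both lines. Umps, the enzyme that completes UMP synthesis, was at 187 and 173 CPM in DMSO and 27.5 and 26.2 CPM after dTAG-13 in the GABPA line and at 151 and 151 CPM in DMSO and 66.7 and 75.3 CPM after dTAG-13 in the GABPB1/GABPB2 line. Adsl, of purine synthesis, changed by -1.86 and -0.46. Of 41 proteasome genes 11 were lower, with Psmb4 at 415 and 420 CPM in DMSO and 57.4 and 53 CPM after dTAG-13 against 226 and 200 CPM in DMSO and 115 and 124 CPM after dTAG-13, and the assembly chaperone Pomp at -2.77 and -1.42. Of 10 COP9 signalosome genes 4 were lower, with Cops7a at 266 and 279 CPM in DMSO and 21.2 and 19 CPM after dTAG-13, against 110 and 103 CPM in DMSO and 23.7 and 23.2 CPM after dTAG-13 in the other line. In the mTORC1 pathway, the GATOR2 subunit gene Wdr24 fell by 4.68 and 0.99. Wdr24 kept 14.9 and 17.7 CPM without the partners and 2.04 and 1.53 CPM without GABPA, from 32.2 and 32.4 and 46.1 and 45.6 CPM in DMSO.

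Across the 10 lists with at least 5 falls of more than 1 in the GABPA line, the median share of the fall that was seen without the partners ran from 26.3% (mitochondrial DNA transcription and replication) to 43.9% (nucleotide synthesis). At most 3 genes of any of these lists were held, those of small-subunit assembly (3 of 13 such falls). Over all genes, 96 of 1280 such falls (7.5%) were held. None of these 10 lists was made up mainly of held members. Held falls were few over all genes and their number is set by the interval, so this tests no function.

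The list with the highest share of called differences was one that rose. p53 is the transcription factor that answers DNA damage and nucleolar stress, and its targets halt the cell cycle or start apoptosis. Of 36 p53 targets, 32 rose and 2 fell in the GABPA line, and 14 rose and 1 fell in the GABPB1/GABPB2 line. The difference was higher in the GABPA line for 27 (75%, against 10.1% of all genes), and for 26 to 28 when any 1 library was left out. The list was chosen with earlier results of these data known, and the rise of p53 targets in the GABPA line is not new evidence here. Summed over the list, the libraries held 2633 and 2482 CPM in DMSO and 6809 and 6227 CPM after dTAG-13 in the GABPA line, and 2703 and 2743 CPM and 3097 and 3139 CPM in the GABPB1/GABPB2 line. The DMSO sums of the 2 lines were alike, and dTAG-13 and DMSO were apart in both.

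Mdm2, the ubiquitin ligase that restrains p53 (ENSMUSG00000020184.16, mm39 chromosome 10, 117524780 to 117546663, minus strand), was at 130 and 111 CPM in DMSO and 502 and 432 CPM after dTAG-13 in the GABPA line and at 145 and 162 CPM in DMSO and 176 and 175 CPM after dTAG-13 in the GABPB1/GABPB2 line. The changes were 1.96 ± 0.085 and 0.19 ± 0.083 (interval 0.02 to 0.37), with a difference of 1.76 ± 0.12 (adjusted p = 2.86e-08). Cdkn1a, the cell cycle inhibitor p21, was at 177 and 177 CPM in DMSO and 422 and 385 CPM after dTAG-13, and at 197 and 165 CPM in DMSO and 195 and 194 CPM after dTAG-13 in the other line, where the groups overlapped. Apaf1 (apoptosome; 1.93 and 0.32) and Trp53inp1 (2.02 and 0.30) rose strongly in the GABPA line and weakly, but called, in the other. The BH3-only genes Pmaip1 (1.59 and 0.30) and Bbc3 (1.39 and -0.04) and the membrane protein gene Perp (1.63 and 0.00) were in the held class, which took in 15 of the 25 targets that rose by more than 1. Another 8 rose in both lines but less without the partners, among them the mTORC1 inhibitor gene Ddit4 at 44.8 and 40.2 CPM in DMSO and 429 and 354 CPM after dTAG-13, and at 47.5 and 36.6 CPM in DMSO and 60.7 and 54.1 CPM after dTAG-13 in the GABPB1/GABPB2 line. Btg2 (2.29 and 0.47), Ephx1 (2.42 and 0.48) and the p53 relative Trp73 (2.90 and 0.67) were in the same group. Of 16 genes of the p53 circuit itself, 5 were higher in the GABPA line, including Mdm4 (0.72 and 0.11) and the phosphatase gene Ppm1d (0.88 and 0.23).

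The held rises numbered 197 of 1125 (17.5%), and 117 and 115 without dTAG-13 replicates 1 and 2 of the GABPB1/GABPB2 line. Those with the largest rise that met the criteria were Sytl1, Prrg4, Hpcal1, Trp53inp1, Tbc1d8, Ptpn14, Mdm2 and Apaf1, with changes of 1.93 to 2.14 in the GABPA line and -0.02 to 0.32 in the other. Ptpn14, a phosphatase that holds back YAP and a p53 target, was at 56 and 47 CPM in DMSO and 213 and 187 CPM after dTAG-13, and at 76.6 and 78.5 CPM in DMSO and 91.6 and 86.1 CPM after dTAG-13 in the GABPB1/GABPB2 line. Hpcal1, a neuronal calcium sensor, went from 8.56 and 7.96 to 37.1 and 32 CPM, and was at 13.4 and 13.7 CPM in DMSO and 15.7 and 12.6 CPM after dTAG-13 in the other line, where the groups overlapped. In new RNA, 1 of 186 held rises measured had risen at 1 h (0.0567% of all genes rose) and 151 at 12 h (12.3%). Their medians were 0.13 at 1 h, 0.08 at 4 h and 1.25 at 12 h. In the GABPB1 line, where 1.28% of all genes rose, 8 of the 197 rose, with a median of 0.14. Cdkn1a stood apart, with a new RNA change of -0.07 at 12 h beside a total RNA change of 1.19.

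A rise that came without the partners as well was cholesterol synthesis. Of 31 genes of the pathway and its SREBP2 control, 30 rose in the GABPA line and 26 in the GABPB1/GABPB2 line, with medians of 0.69 and 0.50. For 23 the difference was not called, 7 were higher and 1 lower in the GABPA line. The higher and lower genes were 22.6% and 3.23% of the list, against 10.1% and 10.7% of all genes. The 7 became 1 without GABPB1/GABPB2 dTAG-13 replicate 2, 3 without DMSO replicate 1 of either line, 4 without GABPA dTAG-13 replicate 2 and 12 without GABPA dTAG-13 replicate 1, while the lower count stayed at 0 to 2. Hmgcs1, which makes HMG-CoA, a precursor, was at 225 and 214 CPM in DMSO and 405 and 467 CPM after dTAG-13 in the GABPA line and at 192 and 226 CPM in DMSO and 288 and 266 CPM after dTAG-13 in the other. All dTAG-13 libraries exceeded all DMSO libraries of their line for this gene.

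Other rises were larger without GABPA. Txnip, which curbs glucose uptake, was at 144 and 134 CPM in DMSO and 487 and 435 CPM after dTAG-13 and in the GABPB1/GABPB2 line at 59 and 56.2 CPM in DMSO and 79.2 and 77.7 CPM after dTAG-13, and its relative Arrdc4 rose by 0.94 without GABPA and was at 0.12 ± 0.097 without the partners. The immediate early gene Jun was at 1.43 and 0.29, with 8 of 24 genes of its list higher in the GABPA line and 5 without GABPB1/GABPB2 dTAG-13 replicate 2. Of 39 lysosome genes 10 were higher (25.6%, against 10.1% of all genes) and 4 lower (10.3%, against 10.7%). Examples of higher genes were the protease gene Ctsd (0.85 and 0.04) and Lamp2 (0.55 and 0.07). The count of higher lysosome genes was 4 and 5 without dTAG-13 replicates 1 and 2 of the GABPB1/GABPB2 line. Tap1, the antigen peptide transporter, was at 5.11 and 3.66 CPM in DMSO and 41.7 and 29.3 CPM after dTAG-13 without GABPA and at 6.1 and 4.77 CPM in DMSO and 7.02 and 8.2 CPM after dTAG-13 without the partners, and it overlaps Psmb9 on the other strand.

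Of 28 naive and general pluripotency genes, 10 fell and 7 rose in the GABPA line, and 3 fell in the GABPB1/GABPB2 line, with medians of -0.04 and -0.02. The difference was lower for 2 and higher for 4. These were 7.14% and 14.3% of the list, against 10.7% and 10.1% of all genes. The lower count was 6 and 4 without DMSO replicates 1 and 2 of the GABPB1/GABPB2 line, and the higher count 2 without either of its dTAG-13 replicates. Stat3, which carries the LIF signal, was at 125 and 133 CPM in DMSO and 175 and 177 CPM after dTAG-13 in the GABPA line and at 140 and 136 CPM in DMSO and 142 and 144 CPM after dTAG-13 in the other. Lin28a (-0.37 and -0.01) and Trim28 (-0.45 and -0.09) were lower, and Tbx3 (0.36 and -0.07) higher. Of 15 formative and primed genes, 7 fell and 2 rose in the GABPA line, and 2 fell and 1 rose in the GABPB1/GABPB2 line (medians -0.34 and -0.08, and -0.25 for the difference). The difference was lower for 4 and higher for 2, or 26.7% and 13.3% of the list, against 10.7% and 10.1% of all genes. The higher count was 1 without GABPB1/GABPB2 DMSO replicate 1 or either of its dTAG-13 replicates. Nodal, a signal of the primed state, was among the genes that rose in the GABPA line (0.87) and was at -0.05 ± 0.075 in the other.

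Loss of the partners moved a small set of genes further than loss of GABPA, or the other way. Opposite calls in the 2 lines with a called difference were found for 26 genes, 32 genes fell more without the partners, and 16 rose more. Trim11, a ubiquitin ligase, was at 31.6 and 28.2 CPM in DMSO and 21 and 15.1 CPM after dTAG-13 in the GABPA line and at 43.9 and 37.7 CPM in DMSO and 9.33 and 10.5 CPM after dTAG-13 in the GABPB1/GABPB2 line (changes -0.73 and -2.05, difference 1.32 ± 0.19). Fam83h rose in the first line, from 24.1 and 21.1 to 48 and 32.3 CPM, and fell in the second, from 22.6 and 19.1 to 8.74 and 8.5 CPM. The DMSO levels were alike, and the difference of 2.11 ± 0.22 (adjusted p = 2.63e-06) was the largest among the named opposite genes. In the GABPB1 line, whose changes did not enter the difference, Fam83h was at -0.74 ± 0.15 and Trim11 at -0.99 ± 0.11. The NF-kappa-B inhibitor gene Nfkbia (0.56 and -0.34) and the water channel gene Aqp3 (0.66 and -0.41) had the same signs as Fam83h. The sodium-proton exchanger gene Slc9a8 (-0.53 and 0.45) and Bin3 (-0.89 and 0.48) had the reverse. H2-K1, a classical MHC class I gene, was at 48.1 and 49 CPM in DMSO and 48.5 and 48.5 CPM after dTAG-13 without GABPA, and rose without the partners from 42.1 and 41.2 to 61.6 and 51.7 CPM.

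The GABP subunit genes themselves rose in both lines, and all dTAG-13 libraries exceeded their DMSO libraries. Per length, Gabpa mRNA was at 20.1 and 20.5 TPM (a level scaled by gene length) in DMSO and 31.5 and 32.1 TPM after dTAG-13 in the GABPA line, and at 58.9 and 63.9 TPM and 104 and 105 TPM in the GABPB1/GABPB2 line. The Gabpa difference was -0.10 ± 0.10 and was not called (adjusted p = 0.566). Gabpb1 was at 28.7 and 21.6 TPM and 80.4 and 80.5 TPM in the GABPA line, and at 22.5 and 29.2 TPM and 48 and 45.1 TPM in the other, a difference of 0.70 ± 0.14 on the CPM scale. Gabpb2 was at 13.5 and 13.1 TPM and 22.8 and 24.5 TPM, against 9.5 and 10.3 TPM and 12.8 and 12 TPM (difference 0.48 ± 0.10). Both partner mRNAs thus rose more without GABPA. All 3 genes have antisense neighbours whose reads could be counted with them.

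Among other ETS-family genes, Etv3, a repressor of the family, was at 27.3 and 25.5 CPM in DMSO and 1.05 and 0.708 CPM after dTAG-13 in the GABPA line and at 20.8 and 21.4 CPM in DMSO and 2.21 and 2.51 CPM after dTAG-13 in the GABPB1/GABPB2 line. It fell far in both, with a difference of -1.74 ± 0.33 (adjusted p = 0.001). Elf2 fell by 0.89 and 0.31. The Elk4 difference was also called lower, at -0.93 (-1.18 to -0.71 over the leave-outs). It was not called without GABPA dTAG-13 replicate 1, at -0.71. The Ets1 difference was called higher, at 1.40 (1.06 to 1.69 over the leave-outs). It was not called with DESeq2, with limma voom, with a replicate block or in the fit of the 8 libraries alone. Among the leave-outs, the Ets1 call was kept only without GABPA dTAG-13 replicate 2. In the family list, 3 of 18 genes tested were lower (16.7%, against 10.7% of all genes) and 1 was higher (5.56%, against 10.1%). The family members Elk1, Elf1, Elf4, Ets2 and Etv5 had differences of -0.20 to 0.32 that were not called.

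The starting levels of the lines differed widely, and they share their DMSO libraries with the responses. In DMSO, 4990 genes (30.4%) were higher and 5184 (31.6%) lower in the GABPA line than in the GABPB1/GABPB2 line. Of the 96 held falls, 49 started higher in the GABPA line and 20 lower, with a median of 0.30. After dTAG-13, 83 of the 96 (86.5%) were lower in that line, against 51.1% of all genes tested. The class was defined by a larger fall in that line, which favours such a count. The 642 genes that fell in both lines but less without the partners had a like start (363 higher, 99 lower, median 0.31). After dTAG-13, 578 of them (90.0%) were lower in the GABPA line. Of the 197 held rises, 116 (58.9%) started lower in the GABPA line and 28 higher. Since an extreme DMSO value enters the start and the response alike, the part of the shared libraries in this pattern was not tested.

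The ETS letters were more frequent in promoters of genes that fell without GABPA, while the share of the fall seen without the partners was alike with and without them. Of 11330 tested genes with a listed RefSeq promoter (250 bases before to 50 after the start), 18.9% held CCGGAAG or its reverse complement in any listed promoter. Taken singly, 8.86% of all 32851 listed promoters held it. These shares count unlike units, since a gene with more promoters has more chances to hold the letters. By gene, the share was 50.7% (36 of 71) in the held falls and 62.8% (318 of 506) in the genes that fell in both lines but less without the partners. It was 36.7% (47 of 128) where the difference was not called. At least 2 copies were found in 12.7%, 22.1% and 11.7% of these classes and in 3.53% of all tested genes. Held rises had the letters in 12.7% (18 of 142), and rises seen in both lines but smaller without the partners in 2.56% (2 of 78). By copy number, the median change in the GABPA line was 0.12 for genes with 0 copies, -0.23 with 1 and -0.72 with 2 or more. Among the genes of these groups that fell by more than 1, the median share seen without the partners was 40.2%, 39.2% and 40.9%. The YY1 letters AAGATGGC, on either strand, were in 4.93% of tested genes and 5.63% of held falls, and the NRF1 letters GCATGCGC in 5.76% and 7.04%. The last 3 letters of the ETS motif can be the first 3 of the YY1 motif. Letters in a promoter are not evidence of binding.

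**Figure D5:**
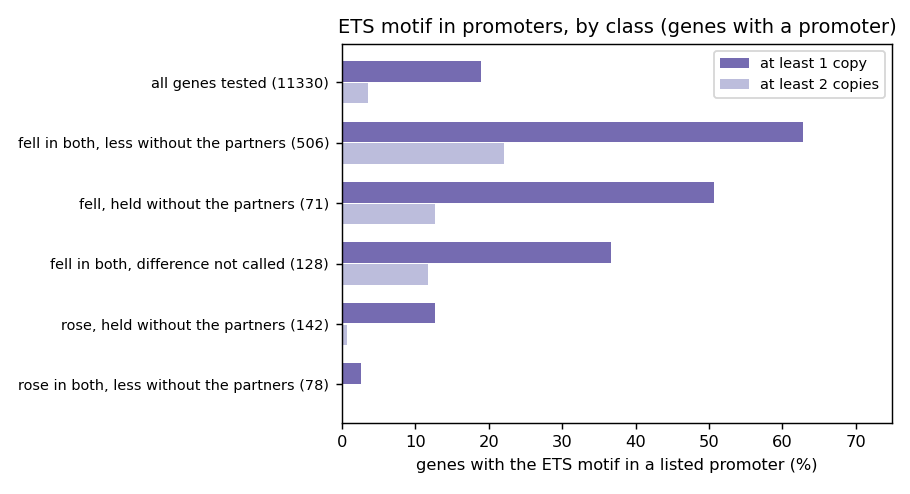
Share of genes with at least 1 copy (dark bars) and at least 2 copies (light bars) of the ETS letters in a listed promoter, for all tested genes and 5 classes, with the number of genes in brackets. All 3 classes of falls stand above the 18.9% of all tested genes, and both classes of rises stand below it.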

How the data were processed

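Polyadenylated RNA of mouse embryonic stem cells was sequenced in 12 libraries, of which 8 enter the comparison, and new RNA in 14. The deposited RNA-seq tables hold expected counts and TPM per gene. The deposited SLAM-seq tables hold counts of reads, and of reads with T-to-C conversions, with slamdunk 0.4.3 named in their headers. Per the submitters' processing notes the genome was mm39 and the tools were RSEM 1.3.1, STAR 2.7.11a, DESeq2 1.44.0, cutadapt 3.5, Trim Galore 0.6.7, SAMtools 1.13, Bowtie2 2.4.4, deepTools 3.5.1 and Picard 2.21.4. The sources used here do not give the handling of strands.

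Expected counts were rounded and fitted with edgeR 4.0.16 (R 4.3.3; TMM; filterByExpr, minimum count 10 and total 15; 16396 genes, and 15887 for SLAM-seq), with a mean for each of 6 RNA-seq groups. The 6 groups shared a common estimate of the spread. The quasi-likelihood test with Benjamini-Hochberg adjustment was used, called at 0.05, and it was tested on simulated data. CPM values of single genes are edgeR's, and the sums of cell type markers are scaled to library totals alone. TPM values served for subunit levels only. A floor of 3 reads covers counting error only.

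The comparison, the classes and the 44 gene lists were chosen with earlier results of these data known. In all, 206 genes were eligible to be named: the subunits, the 12, 6 and 8 genes of largest change among held falls, falls with no called difference and held rises (average log2 CPM of at least 3, groups apart, no predicted genes), 6 opposite or stronger genes in each direction, up to 4 called members of each list with the smallest p, and ETS-family and exosome genes. Held genes within lists, and the p53 targets Cdkn1a, Pmaip1, Bbc3 and Perp, were named after their values were seen. Alternatives used limma 3.58.1 and DESeq2 1.42.0. Some genes are not reported here.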

Additional observations from a re-analysis of the deposited data

Results flagged for a closer look

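The responses of the 2 lines differed, by the test of the interaction between line and treatment, for 1754 genes lower and 1648 genes higher in the GABPA line. For 9 named genes the responses had opposite signs and the interaction was called. The difference was 2.11 for Fam83h, 1.07 for Aqp3, 0.91 for Nfkbia, 0.58 for Ahnak and 0.58 for Cds2, which rose without GABPA and fell without the partners. It was -1.37 for Bin3, -0.98 for Slc9a8, -0.89 for Dbn1 and -0.60 for Anapc15, which fell without GABPA and rose without the partners. Bin3, Dbn1, Anapc15 and Fam83h overlap another gene, so that their reads may be shared.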

How the results depend on the processing

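Alternatives were a fit of the 8 libraries alone, DESeq2, DESeq2 size factors in edgeR, limma voom with sample weights, genes tested without a filter or only from an average log2 CPM of 3 up, a replicate block, other class thresholds and leaving out each of the 8 libraries. Of the 206 named genes, 183 kept their call under all 15 alternatives fitted and 23 did not, and in 6 more, never called, the sign alone changed. Where still tested, the 3402 difference calls kept their direction, apart from 1 gene without each of the GABPB1/GABPB2 dTAG-13 replicates. Where a group was left with 1 library, that library is assumed to vary like the others.

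In the fit of the 8 libraries alone, 1637 differences were lower and 1130 higher, against 1754 and 1648. Risen genes in the GABPB1/GABPB2 line numbered 317 in the fit of the 8 libraries alone and 280 with limma voom, against 578. When only genes from an average log2 CPM of 3 up were fitted, held falls numbered 56 and falls with no called difference 55. In the main fit, 82 of the 96 held falls were at that level. With the held interval set at 0.3 or 1 in place of 0.5, held falls numbered 14 or 547 and held rises 31 or 477, and with 1 the falls in both lines but less without the partners numbered 291. With a change over 1.5-fold, held falls were 449, falls with no called difference 352 and held rises 637. With a log2 change over 2 these were 4, 60 and 7, and falls in both lines but less without the partners 263. The size of the held classes is thus set by these thresholds. Leaving out 1 library gave 1427 to 2312 lower and 1057 to 1580 higher differences, 3054 to 4253 fallen and 3134 to 3829 risen genes in the GABPA line, and 970 to 1742 and 192 to 809 in the other. Held falls ranged over 70 to 121, falls in both lines but less without the partners over 539 to 661, falls with no called difference over 158 to 211 and held rises over 115 to 249. Of the 96 held falls, 52 were still held without GABPB1/GABPB2 dTAG-13 replicate 1 and 56 without replicate 2.

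Reversed signs concerned differences that were not called. Rabep2 (0.01) was -0.0385 in the fit of 8 libraries, -0.00584 with DESeq2 size factors, -0.00503 with DESeq2, -0.0039 without the filter and -0.19 to 0.15 over the leave-outs. Zcchc7 was -0.0037 in the fit of 8 libraries and -0.14 to 0.13 over the leave-outs. Over the leave-outs, Ccdc137 was at -0.84 to 0.16, Elk1 at -0.00792 to 0.15, Etv4 at -0.025 to 0.14, Exoc3l at -0.37 to 0.61 and Tro at -0.55 to 0.10. The cause was not tested.

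Replicate numbers did not pair the libraries (correlations of same-numbered deviations from -0.25 to 0.31). With a replicate block, 1749 differences were lower and 1633 higher, and 3313 of 3402 calls were shared. With 2 libraries a group, small differences were not detectable for weakly expressed genes.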

Other observations

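The exocyst, taken with relatives of its subunits, showed unlike responses within 1 list of 11 tested genes. Exoc3 fell most without GABPA, from 53.2 and 54.2 to 0.805 and 1.06 CPM, and kept 6.92 and 8.32 of 36.3 and 41.4 CPM without the partners. Exoc1 was held, and Exoc3l fell in both lines with no called difference, as described above. Exoc4 rose without GABPA (0.71 ± 0.063) and was at 0.17 ± 0.064 without the partners, and Exoc8 was at 0.57 ± 0.095 and -0.00 ± 0.099. Without GABPB1/GABPB2 dTAG-13 replicate 1 the Exoc8 difference was not called, and the exocyst genes called higher in the GABPA line numbered 1, against 4 with all libraries. Exosc6, an RNA exosome gene, was listed at 0 in all 4 libraries of the GABPB1/GABPB2 line and in 1 dTAG-13 library of the GABPA line. It overlaps Aars on the same strand, and its fitted difference of responses carries no information.

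Ldhb, a subunit of lactate dehydrogenase, rose without GABPA (109 and 106 to 205 and 183 CPM) and was at 147 and 137 CPM in DMSO and 153 and 147 CPM after dTAG-13 in the GABPB1/GABPB2 line. The lactate transporter gene Slc16a3 was held in the comparison (-1.18 and -0.03), but its GABPA DMSO libraries stood at 57.5 and 91 CPM and it also fell in the GABPB1 line, by 1.0. It overlaps Csnk1d on the other strand. Zic5, a transcription factor of the formative state, fell without GABPA (22.5 and 23.6 to 11.1 and 12 CPM) and was at 26.5 and 30.6 CPM in DMSO and 25.8 and 28.1 CPM after dTAG-13 in the GABPB1/GABPB2 line.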
